A study of Mus musculus and Rattus norvegicus with 12 samples.

Results

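The genes described here are 10 components and targets of bone morphogenetic protein (BMP) signalling, read across 12 blastocyst-derived cell lines of mouse and rat. They were chosen by name and comprise the ligands Bmp2 and Bmp4, the secreted regulator Bmper, the pseudoreceptor Bambi, the receptor Bmpr1a, the inhibitory Smad6 and the target genes Id1, Id2, Id3 and Id4. All 10 were among the 24411 gene symbols of the mouse count tables and the 17315 of the rat tables, and all 10 passed the filter on low counts with which 10895 mouse genes were tested.

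The mouse groups, all of strain ICR, were pXEN (3 lines), XEN (3 lines) and ES (2 lines). The pXEN lines were pXEN2, pXEN4 and pXEN6, the XEN lines XEN1, XEN2 and XEN5, and the ES lines ES2 and ES3. The rat group, XENP, had 4 lines, of which CX1 and MAX8 came from strain WKY and MAX2 and MAX3 from strain F344. XEN lines are extraembryonic endoderm stem cells, the in vitro counterpart of the primitive endoderm, and ES lines are pluripotent embryonic stem cells. The pXEN lines and the rat XENP lines shared a culture protocol, whereas XEN lines grew on mouse embryo fibroblasts in 20% FBS and ES lines in 15% FBS with LIF and the inhibitor mix known as 2i. All samples were taken after 2 days of culture. Cell type and culture therefore change together in every mouse comparison and cannot be told apart. Each group holds both sexes, each sample is a separate line, and the spread given is that between lines. XENP stands in the names of the pXEN count tables, and the samples are named here by their titles.

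BMP ligands bind a complex of type I receptors, such as the product of Bmpr1a, and type II receptors, which phosphorylates SMAD1, SMAD5 and SMAD9. These enter the nucleus with SMAD4, and the Id genes are among their most direct targets. ID proteins lack a DNA-binding domain and hold basic helix-loop-helix factors away from DNA. BMP4 with LIF keeps mouse ES cells undifferentiated through Id genes, and BMP signalling drives XEN cells towards visceral endoderm.

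Mouse libraries held 2661691 to 3483069 reads counted in genes and rat libraries 1047535 to 1242937. Values are CPM, a gene's count relative to an equal total of gene counts, scaled between mouse libraries by the trimmed mean of M values, and the rat CPM are not on that scale. The transcript Rn45s, a ribosomal RNA precursor, took 20.7 to 50.1% of mouse gene counts. The 12 extraembryonic endoderm markers were all above 0 in each pXEN and XEN line, with summed levels of 9432 to 11444 CPM in pXEN, 7573 to 16785 CPM in XEN and 86.5 to 131 CPM in ES. Nanog and Sox2, which mark pluripotent cells, were at 0 to 0.389 CPM in pXEN and XEN lines and at 204 to 1108 CPM in ES lines. Pou5f1 lay between 10.8 and 38.9 CPM in pXEN lines, at or under 0.277 CPM in XEN lines and at 995 and 811 CPM in ES2 and ES3. Zfp42, also a pluripotency gene, lay between 8.59 and 22.1 CPM in pXEN lines and at or under 0.263 CPM in XEN lines. It was at 821 and 626 CPM in ES2 and ES3. Of 10 pluripotency genes tested, 3 were higher (Pou5f1, Zfp42 and Dppa5a) and 0 lower in pXEN than in XEN. Over all genes tested, 0.918% were higher and 3.63% lower. A list of 18 fibroblast genes summed to 3.98 to 12.6 CPM in pXEN, 425 to 505 CPM in XEN and 18.7 to 29.9 CPM in ES, and its genes Col1a2, Col3a1 and Postn were at 0 in all pXEN lines. Of that list 14 genes were lower in pXEN than in XEN and 13 were higher in XEN than in ES, with 15 tested. Fewer cells of a type and less RNA per cell cannot be told apart in bulk samples such as these.

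Promoter sequence from RefSeq on GRCm38.p6 was at hand for 7 of the 10 genes. Shown here are the 250 bases before the RefSeq start, on the gene's strand, of Bmp4, Bmper and Id4. These genes were picked after their values were seen and have no GENCODE exon in the window. The Smad6 window also has no such exon and is not shown. Capitals mark GGCGCC (a GC-rich SMAD-binding motif), CAGAC (the SMAD box) and CANNTG (the E-box bound by the basic helix-loop-helix factors that ID proteins hold), each searched on both strands.
Bmp4, minus strand, chr14:46390670-46390919: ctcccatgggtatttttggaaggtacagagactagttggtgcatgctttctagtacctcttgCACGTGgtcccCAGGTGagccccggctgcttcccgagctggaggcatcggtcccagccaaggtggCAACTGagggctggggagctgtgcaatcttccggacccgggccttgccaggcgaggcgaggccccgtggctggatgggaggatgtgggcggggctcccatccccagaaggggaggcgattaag
Bmper, plus strand, chr9:23222826-23223075: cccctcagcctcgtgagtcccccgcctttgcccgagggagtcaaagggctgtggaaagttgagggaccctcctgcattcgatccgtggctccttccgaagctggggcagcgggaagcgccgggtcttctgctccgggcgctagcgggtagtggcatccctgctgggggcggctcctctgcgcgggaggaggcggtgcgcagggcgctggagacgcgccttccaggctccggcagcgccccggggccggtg
Id4, plus strand, chr13:48260866-48261115: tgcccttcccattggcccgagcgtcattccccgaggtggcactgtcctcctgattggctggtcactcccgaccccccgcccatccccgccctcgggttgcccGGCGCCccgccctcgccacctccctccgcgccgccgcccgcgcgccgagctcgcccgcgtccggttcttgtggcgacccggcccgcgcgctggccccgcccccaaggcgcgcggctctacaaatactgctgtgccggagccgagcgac

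The Bmp4 window held 3 CANNTG matches, with first bases at -188, -177 and -123 counted from the start. The Id4 window held 1 GGCGCC, at -148 to -143, and the Bmper window held none of the 3 motifs. Positions count from the RefSeq start, which for Id4 lies before the GENCODE start at 48261228. GGCGCC also occurred once each in the windows of Id2 and Bmpr1a, CAGAC occurred 2 times in that of Id3, and the Smad6 window held none of the 3. By the GENCODE positions, the windows of Id2, Bmpr1a and Id3 lie inside the gene and overlap an exon. Matches in them are therefore not matches before the GENCODE start. Of 32851 promoter windows of this length, 9.59% held GGCGCC, 42.2% CAGAC and 66.2% CANNTG. The GC content was 63.2% for Bmp4, 71.6% for Bmper and 75.6% for Id4, against a median of 52.4% over all windows. These matches describe the letters and do not show binding.

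The ligands and Bmper separated the groups most widely. Bmp2 and Bmper were present in every pXEN and XEN line and had no count in either ES line, whereas Bmp4 had no count in any pXEN line and was low in XEN and ES lines. Bmp2 (chromosome 2, 133552159 to 133562885, GRCm38, plus strand) encodes a BMP ligand. Its levels were 27.2, 51.1 and 32.1 CPM in pXEN2, pXEN4 and pXEN6, 45.9, 34.7 and 45.8 CPM in XEN1, XEN2 and XEN5, and 0 in ES2 and ES3. The pXEN and XEN lines overlapped, and all 6 lay above the ES lines. Bmp2 averaged 36.8 ± 12.6 CPM in pXEN and 42.1 ± 6.46 CPM in XEN (SD, n = 3 each). Against a floor of 3 counts over the ES group, Bmp2 was at least 61.5-fold higher in pXEN (adjusted p = 1.93e-05) and, in XEN, higher by a factor of at least 70.4 (adjusted p = 1.80e-05). All adjusted p-values are from the quasi-likelihood test of edgeR, adjusted over the 10895 genes by the Benjamini-Hochberg method. Between pXEN and XEN, Bmp2 had a log2 difference of -0.19 (SE 0.29, adjusted p = 0.845).

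**Figure D1:**
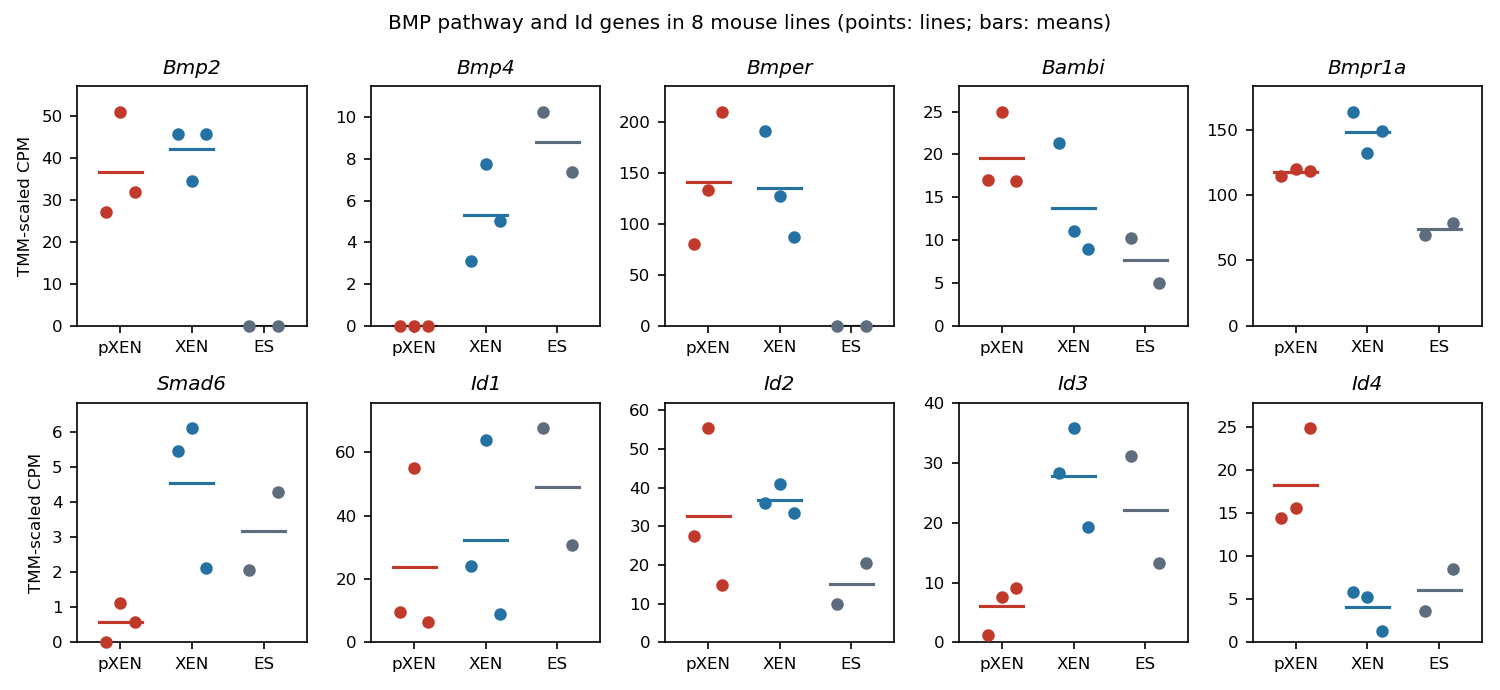
Levels of the 10 genes in the 8 mouse lines, as CPM on linear axes that start at 0, with groups in the order pXEN, XEN, ES; each point is a line and the short bar is the group mean. Bmp2 and Bmper sit at 0 in both ES lines, Bmp4 sits at 0 in the 3 pXEN lines, and the 3 pXEN lines lie above all XEN and ES lines for Id4.

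Bmp4 (chromosome 14, 46383520 to 46390669, minus strand) encodes the ligand best known from ES cell self-renewal and mesoderm formation. It had 0 counts in each of the 3 pXEN lines, 3.11, 7.76 and 5.01 CPM in XEN1, XEN2 and XEN5, and 10.3 and 7.38 CPM in ES2 and ES3. No pXEN line reached the level of any XEN or ES line, while XEN2 lay above ES3. With the pXEN group at the floor of 3 counts, Bmp4 was at least 17.8-fold lower than in XEN (adjusted p = 0.00511, 55 counts over the XEN lines) and at least 29.6-fold lower than in ES (adjusted p = 0.000435, 44 counts over the ES lines). The difference between XEN and ES was -0.71 on the log2 scale (SE 0.56, adjusted p = 0.341). With only pXEN and XEN in the fit, Bmp4 did not pass the filter on low counts and was not tested. XEN lines also carried the fibroblast genes at 425 to 505 CPM in sum, against 3.98 to 12.6 CPM in pXEN lines; their part in the Bmp4 difference from XEN was not tested. The ES lines, in which Bmp4 was at its highest, had a fibroblast sum of 18.7 to 29.9 CPM.

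Bmper (chromosome 9, 23223076 to 23485200, plus strand) encodes a secreted protein that binds BMPs and can inhibit or aid their signalling. Its levels were 80.1, 133 and 210 CPM in pXEN2, pXEN4 and pXEN6, 190, 127 and 86.7 CPM in XEN1, XEN2 and XEN5, and 0 in both ES lines. The pXEN and XEN ranges covered each other almost fully. Bmper was at least 235-fold higher in pXEN than in ES (adjusted p = 7.91e-05) and at least 225-fold higher in XEN than in ES (adjusted p = 9.77e-05), again with ES at the floor. Per kilobase of exon sequence, Bmper had the highest level of the 10 genes in pXEN, at 29.2 ± 13.5 CPM per kb (SD, n = 3), and was next to Id1 in XEN, at 27.9 ± 10.8 CPM per kb (SD, n = 3). Within pXEN that is above Bmpr1a (18.5 CPM per kb) and Bmp2 (10.4 CPM per kb), although the Id1 range of 5.67 to 47.5 CPM per kb covers all 3.

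Bambi and Bmpr1a were present in all 8 mouse lines and differed less. Bambi, on chromosome 18, encodes a receptor-like membrane protein without a kinase that dampens BMP and TGF-beta signalling. It measured 17.1, 25.0 and 16.9 CPM in pXEN lines, 21.4, 11.1 and 8.96 CPM in XEN lines and 10.3 and 5.05 CPM in ES lines. The pXEN lines all lay above the ES lines, and the XEN lines overlapped both. Bambi was 2.57-fold higher in pXEN than in ES (log2 1.36, SE 0.47, adjusted p = 0.0417), a call that was lost under upper-quartile scaling (adjusted p = 0.0559), with sex as a covariate (adjusted p = 0.0684) and when pXEN2, pXEN4, pXEN6 or ES3 was left out (the adjusted p then reaching 0.257).

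Bmpr1a (chromosome 14, 34410734 to 34503341, minus strand), the type I BMP receptor also called ALK3, was the steadiest of the 10 genes between lines of a group. Its levels were 114, 120 and 118 CPM in pXEN lines, 164, 132 and 149 CPM in XEN lines and 69.3 and 78.5 CPM in ES lines. The 3 groups did not overlap. Its pooled within-group SD of log2 CPM was 0.115, lower than that of all but 1.83% of the genes tested. Bmpr1a was 1.59-fold higher in pXEN than in ES (log2 0.67, SE 0.21, adjusted p = 0.0282) and 2.00-fold higher in XEN than in ES (SE 0.21 on the log2 scale, adjusted p = 0.00389). The pXEN call was lost under upper-quartile scaling (adjusted p = 0.0557) and without pXEN2, pXEN4, pXEN6, ES2 or ES3 (adjusted p up to 0.170). Between pXEN and XEN the log2 difference was -0.33 (SE 0.18, adjusted p = 0.448).

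Smad6 (chromosome 9, 63953076 to 64022059, minus strand) encodes an inhibitory Smad that BMP signalling induces and that blocks BMP receptors in turn. It was near the counting limit in pXEN, at 0, 1.14 and 0.572 CPM (6 counts over the 3 lines), against 5.44, 6.10 and 2.11 CPM in XEN and 2.05 and 4.28 CPM in ES. All pXEN lines lay below all XEN and ES lines. The log2 difference was -2.86 against XEN (SE 0.81, adjusted p = 0.0778) and -2.35 against ES (SE 0.91, adjusted p = 0.0648). Neither passed the threshold of 0.05; without a filter on low counts the difference from XEN did (adjusted p = 0.0419), and without pXEN4 that from ES did (adjusted p = 0.0407).

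**Figure D2:**
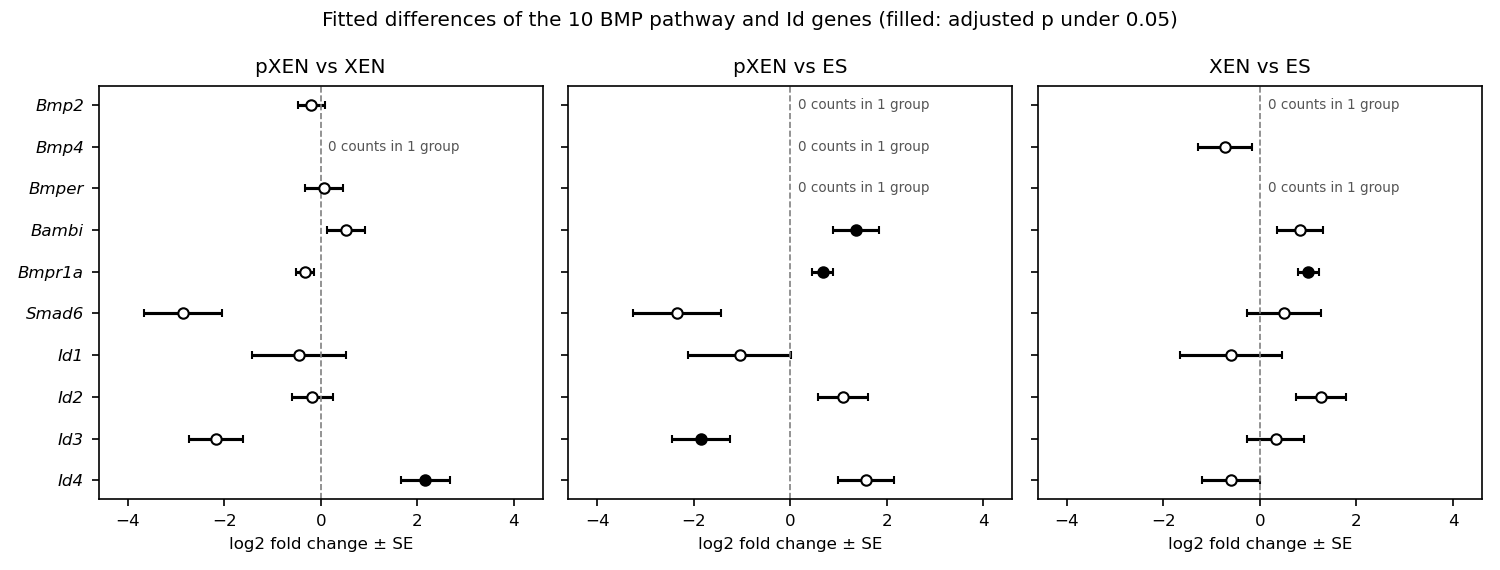
Fitted log2 differences of the 10 genes for pXEN minus XEN, pXEN minus ES and XEN minus ES, with bars of 1 SE on either side; filled points passed an adjusted p of 0.05. A gene with 0 counts in a group is marked and not drawn, since its fitted value depends on the prior count. Id4, at 2.17, is the filled point for pXEN minus XEN.

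The Id genes did not move together between pXEN and the other mouse groups. Id4 was higher in pXEN than in XEN and Id3 was lower in pXEN than in ES, while Id1 and Id2 overlapped between pXEN and both other groups. Id4 (chromosome 13, 48261228 to 48266026, plus strand) measured 14.4, 15.6 and 24.9 CPM in pXEN2, pXEN4 and pXEN6, 5.83, 5.27 and 1.32 CPM in XEN1, XEN2 and XEN5, and 3.69 and 8.55 CPM in ES2 and ES3. The lowest pXEN line lay above the highest XEN and ES lines. Id4 was 4.50-fold higher in pXEN than in XEN (log2 2.17, SE 0.51, adjusted p = 0.0344). That call was lost with sex as a covariate (adjusted p = 0.0583) and when pXEN2 (0.0681), pXEN6 (0.125), XEN1 (0.0617), XEN2 (0.0591) or XEN5 (0.0846) was left out, these being adjusted p-values. Against ES the log2 difference was 1.57 (SE 0.58, adjusted p = 0.0535). It passed the threshold without a filter on low counts (adjusted p = 0.0267), with only the groups compared (0.0256), with sex as a covariate (0.0492) and without XEN5 (0.0247). The opposite-strand gene A330033J07Rik overlaps Id4 and had 0 or 1 count per library.

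Id3 (chromosome 4, 136143497 to 136145755, plus strand) measured 1.31, 7.67 and 9.16 CPM in pXEN lines, 28.4, 35.8 and 19.2 CPM in XEN lines and 31.2 and 13.2 CPM in ES lines. Every pXEN line lay below every XEN and ES line. Id3 was 3.60-fold lower in pXEN than in ES (log2 -1.85, SE 0.61, adjusted p = 0.0377). The call against ES was lost without a filter on low counts (adjusted p = 0.0538), with only the groups compared (0.0594), with sex as a covariate (0.0642) and without pXEN4, XEN1 or ES2 (up to 0.339). Against XEN the log2 difference was -2.17 (SE 0.56), with an adjusted p of 0.0604 by edgeR and of 0.00431 by DESeq2. The fibroblast sum, given above, was higher in XEN than in pXEN lines; its part in the Id3 and Id4 differences was not tested.

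Id1 (chromosome 2, 152736251 to 152737410, plus strand), the Id gene most often read as a BMP response, varied more between lines of a group than between groups. It measured 9.51, 55.1 and 6.58 CPM in pXEN2, pXEN4 and pXEN6, 24.1, 64.0 and 8.96 CPM in XEN1, XEN2 and XEN5, and 67.7 and 30.7 CPM in ES2 and ES3. The line pXEN4 stood above the other pXEN lines and XEN2 above the other XEN lines, so all 3 groups overlapped. The pooled within-group SD of log2 CPM was 1.37, at percentile 98.7 of the genes tested and 99.4 of the 500 genes nearest in level. The log2 difference was -0.44 between pXEN and XEN (SE 0.97, adjusted p = 0.914), -1.04 between pXEN and ES (SE 1.07, adjusted p = 0.484) and -0.60 between XEN and ES (SE 1.06, adjusted p = 0.689).

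Id2 (chromosome 12, 25093799 to 25097140, minus strand) measured 27.6, 55.4 and 14.9 CPM in pXEN lines, 36.1, 41.0 and 33.5 CPM in XEN lines and 9.84 and 20.6 CPM in ES lines. Its highest pXEN line was pXEN4, as for Id1, and the XEN lines lay close together and above both ES lines. Between XEN and ES the log2 difference was 1.27 (SE 0.52, adjusted p = 0.0753), and it passed the threshold with only those groups in the fit (adjusted p = 0.0202), without pXEN4 (0.0205) and without pXEN6 (0.0298). The pXEN lines overlapped both other groups. Without pXEN6, Id2 was called higher in pXEN than in ES (adjusted p = 0.0260); with all lines the log2 difference was 1.09 (SE 0.51, adjusted p = 0.123).

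The mix of Id transcripts differed accordingly. Id4 made up 27.3% of the Id counts in pXEN2 (Wilson 95% interval 21.0 to 34.7), 11.7% in pXEN4 (9.08 to 14.9) and 44.8% in pXEN6 (38.0 to 51.9). The share was 6.17% in XEN1 (3.78 to 9.93), 3.61% in XEN2 (2.32 to 5.56) and 2.09% in XEN5 (0.897 to 4.80), and it was 3.28% in ES2 (1.74 to 6.12) and 11.7% in ES3 (7.86 to 17.1). The pXEN lines lay above the XEN lines, whereas pXEN4 and ES3 could not be separated at this depth. The low share in pXEN4 went with its high Id1 and Id2: its summed Id level was 134 CPM, against 52.8 CPM in pXEN2 and 55.5 CPM in pXEN6. These intervals cover counting error only.

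**Figure D3:**
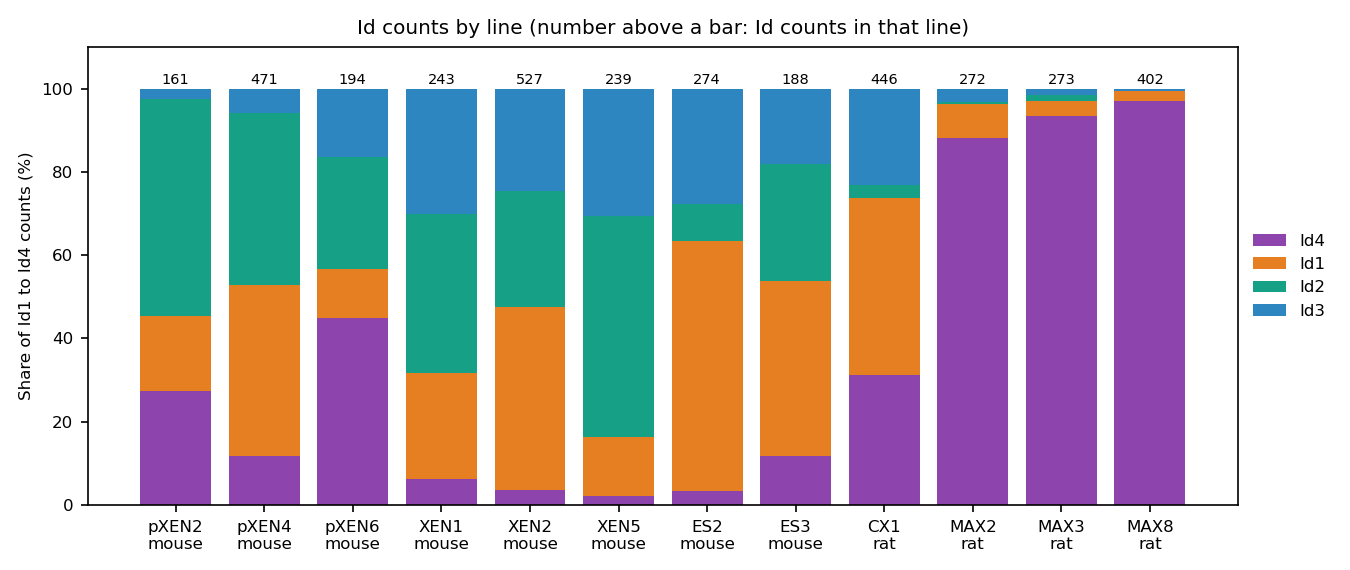
Share of each Id gene in the summed Id counts of a line, in percent, for the 8 mouse and 4 rat lines, as stacked bars that start at 0. Id4 is the largest share in MAX2, MAX3 and MAX8, at 88.2% to 97.0%, and stays at or under 6.17% in the 3 XEN lines.

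Counted over the 10 genes, 1 was called higher in pXEN than in XEN (Id4), where 0.918% of all genes tested were, and 1 was called lower (Bmp4), where 3.63% were, so that 2 were called in all, against 4.55% of all genes. The pXEN and XEN lines did not overlap for 5 of the 10, against 19.8% of all genes. Against ES, 4 were called higher in pXEN (Bmp2, Bmper, Bambi and Bmpr1a), where 18.1% of all genes were, and 2 lower (Bmp4 and Id3), where 17.8% were, or 6 in all, against 35.9% of all genes. Of the 10 genes 8 did not overlap between pXEN and ES, against 62.8% of all genes. In XEN against ES, 3 were called higher (Bmp2, Bmper and Bmpr1a) against 20.7% of all genes, and the count called lower was 0 by edgeR, against 17.8% of all genes (38.4% of all genes in either direction). In that comparison 4 of the 10 had an unadjusted p under 0.05 in either direction, DESeq2 also called 0 lower, and 4 did not overlap against 63.3% of all genes. The comparisons with ES share the ES lines. The 10 genes were chosen with earlier results of these data known, so the shares over all genes are no independent yardstick. The median log2 difference of the 10 genes was -0.26 for pXEN minus XEN, 0.88 for pXEN minus ES and 0.67 for XEN minus ES, beside 0, -0.03 and 0.0015 for all genes tested.

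The wider pathway was read from a list of 81 other BMP genes, of which 41 were tested. That list too was chosen with earlier results of these data known. Compared with XEN, 7 were lower in pXEN, where 3.63% of all genes were lower and 0.918% higher. The count higher was 0 by edgeR and 1 by DESeq2, and 13 of the 41 had an unadjusted p under 0.05 in either direction. Zeb2 (a transcriptional repressor that binds Smads) measured 2.62, 0.568 and 1.14 CPM in pXEN lines and 19.8, 32.2 and 24.2 CPM in XEN lines, a 17.6-fold lower level (adjusted p = 0.000682). Hes1, a helix-loop-helix repressor of the Notch pathway, measured 27.6, 28.4 and 35.8 CPM in pXEN lines and 102, 97.3 and 92.5 CPM in XEN lines, 3.18-fold lower in pXEN (adjusted p = 0.00199). Neither gene overlapped between the groups. Smad7, an inhibitory Smad that acts on both BMP and TGF-beta receptors, was at 17.4, 15.9 and 20.9 CPM in pXEN lines and 73.1, 46.6 and 34.8 CPM in XEN lines. It was 2.83-fold lower in pXEN (adjusted p = 0.0130; 0.0596 without pXEN2). Skil, a co-repressor of Smads, was 3.47-fold lower (adjusted p = 0.0431), a call lost with sex as a covariate, with only the groups compared, and without pXEN4, pXEN6, XEN1, XEN5, ES2 or ES3 (adjusted p up to 0.150). XEN lines, in which all 7 were higher, also had the higher fibroblast sum, and its part in these differences was not tested. ES lines had a fibroblast sum of 18.7 to 29.9 CPM. In them Smad7 was at 45.1 and 40.0 CPM, Skil at 54.5 and 37.3 CPM and Zeb2 at 0.820 and 0.777 CPM. Hes1 lay between 17.6 and 27.6 CPM there.

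The remaining 3 of the 7 are named here after their values were seen, because they lie below the level set for naming. Grem1, a secreted BMP antagonist, had 0 counts in each pXEN line and 5.05, 5.55 and 3.69 CPM in XEN lines, at least 16.0-fold lower in pXEN (adjusted p = 0.00965). Nbl1, another secreted antagonist of the DAN family, was at 0.328, 0.568 and 0 CPM in pXEN lines and 8.16, 6.65 and 7.11 CPM in XEN lines (adjusted p = 0.00665). Zfp423, which encodes a zinc finger partner of Smads, averaged 0.885 ± 0.475 CPM in pXEN and 4.35 ± 0.276 CPM in XEN (SD, n = 3 each; adjusted p = 0.0320), a call lost with sex as a covariate and without any line other than pXEN6 (adjusted p up to 0.117). None of the 3 overlapped between pXEN and XEN. In ES lines Grem1 was at 0 CPM, Nbl1 at 0 to 0.389 CPM and Zfp423 at 10.9 to 11.1 CPM.

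Against ES, 13 of the 41 were higher and 6 lower in pXEN, and 17 were higher and 3 lower in XEN. XEN lines also had the higher fibroblast sum, 425 to 505 CPM against 18.7 to 29.9 CPM in ES lines. Its part in the XEN calls was not tested. The shares over all genes tested were 18.1% higher against 17.8% lower for pXEN, and 20.7% higher against 17.8% lower for XEN, so the 6 lower calls in pXEN are near the share of all genes. The secreted antagonists and modulators gave 6 of the higher calls in each comparison, with 11 tested and none lower. The protease Bmp1, the membrane protein Crim1, Nog and Fst were called in both. Grem1 and Nbl1 were called only in XEN. Chrd and Fstl3, which lie below the level set for naming, were called only in pXEN. Both calls were lost without ES2 (adjusted p = 0.0984 for Chrd and 0.0653 for Fstl3) and without ES3 (0.101 and 0.0666). Noggin (Nog), which traps BMP2 and BMP4, measured 124, 83.5 and 110 CPM in pXEN lines, 15.9, 10.5 and 63.8 CPM in XEN lines, and 0 and 1.17 CPM in ES lines. No group overlapped another. Nog was higher than in ES both in pXEN (adjusted p = 0.00219) and in XEN (adjusted p = 0.00897; 0.0738 without ES2). Between pXEN and XEN the 3.49-fold higher level (SE 0.63 on the log2 scale) had an adjusted p of 0.208. Follistatin (Fst), which binds activins and some BMPs, measured 183, 168 and 235 CPM in pXEN lines, 288, 148 and 302 CPM in XEN lines, and 5.33 and 5.05 CPM in ES lines. That was 37.4-fold higher than ES in pXEN (adjusted p = 7.66e-06) and 47.1-fold higher in XEN (adjusted p = 6.34e-06). Crim1, a membrane protein that binds BMPs, was 22.9-fold higher in XEN than in ES (adjusted p = 0.000226). Bmp1, a protease that cleaves chordin and procollagen, was 11.2-fold higher in pXEN than in ES (adjusted p = 0.00171).

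**Figure D4:**
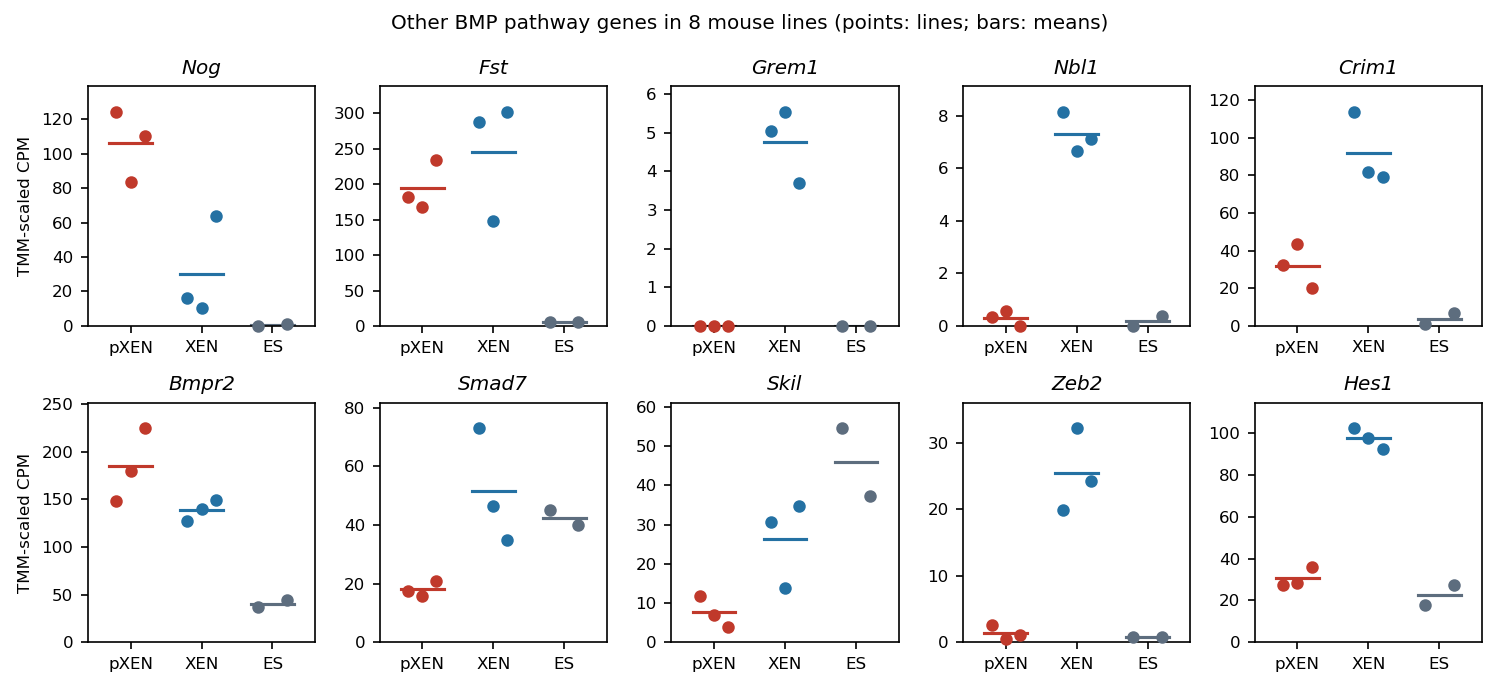
Levels of 10 other BMP pathway genes in the 8 mouse lines, as CPM on linear axes that start at 0, with groups in the order pXEN, XEN, ES; each point is a line and the short bar is the group mean. Smad7, Zeb2, Hes1, Grem1 and Nbl1 lie lower in all pXEN than in all XEN lines, and Nog and Fst lie higher in all pXEN and XEN than in both ES lines.

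Among the other receptors, the type II receptor Bmpr2 measured 149, 180 and 225 CPM in pXEN lines, 127, 140 and 149 CPM in XEN lines, and 36.9 and 44.3 CPM in ES lines. It was 4.54-fold higher in pXEN than in ES (adjusted p = 0.0001) and overlapped between pXEN and XEN. Bmpr2 was also higher in XEN than in ES. With single lines left out, that log2 difference ran from 1.65 to 1.91 (adjusted p up to 0.00851). Tgfbr3, a co-receptor that binds BMPs and TGF-beta, was 30.9-fold higher in pXEN than in ES (adjusted p = 0.00119) and 27.8-fold higher in XEN than in ES (adjusted p = 0.00146). Acvr1, the type I receptor ALK2, was 7.04-fold higher in XEN than in ES (adjusted p = 0.00235). Endoglin (Eng), a co-receptor, ran the other way: it measured 0, 0.852 and 0 CPM in pXEN lines, 1.17, 1.39 and 0.527 CPM in XEN lines, and 7.38 and 21.8 CPM in ES lines. It was lower than in ES in pXEN (adjusted p = 0.00103) and in XEN (adjusted p = 0.00372; 0.0851 without ES3).

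Of the other ligands, 3 of 14 were tested. Gdf3, a TGF-beta family ligand of pluripotent cells, had 0 counts in all pXEN and XEN lines and 95.1 and 113 CPM in ES lines, at least 349-fold lower in pXEN (adjusted p = 1.45e-05) and at least 346-fold lower in XEN (adjusted p = 1.73e-05). Gdf9, which lies below the level set for naming, was called higher than in ES in both pXEN and XEN. It averaged 4.52 CPM in pXEN, 8.99 CPM in XEN and 0.194 CPM in ES. Its pXEN call was lost without ES2 (adjusted p = 0.107). Among the Smads and their regulators, Smurf1, a ubiquitin ligase that targets Smads and BMP receptors, was 2.88-fold higher in pXEN than in ES (adjusted p = 0.00375) and 3.59-fold higher in XEN than in ES (adjusted p = 0.00137). Zfp423 was 11.8-fold lower (adjusted p = 0.000476) and Skil 6.03-fold lower (adjusted p = 0.00171) in pXEN than in ES, while in XEN Zeb2 was 30.4-fold higher than in ES (adjusted p = 0.000192). Zfp423 was 2.52-fold lower in XEN than in ES (adjusted p = 0.0415), a call lost by DESeq2, without a filter, with sex as a covariate and without XEN1, XEN2, XEN5, ES2 or ES3 (adjusted p up to 0.162). Among the signal-carrying Smads, Smad1 averaged 8.41 ± 1.39 CPM in pXEN, 8.62 ± 0.757 CPM in XEN (SD, n = 3 each) and 11.0 ± 0.431 CPM in ES (SD, n = 2). Smad5 averaged 29.8 ± 0.660 CPM in pXEN, 32.8 ± 3.58 CPM in XEN (SD, n = 3 each) and 23.4 ± 0.603 CPM in ES (SD, n = 2). Smad9 averaged 0 CPM in pXEN, 0.0878 CPM in XEN and 0.399 CPM in ES.

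Of the 14 genes listed as targets, 3 were tested and 2 were higher than in ES in both pXEN and XEN. Zfp703, a zinc finger repressor, measured 7.55, 20.4 and 9.16 CPM in pXEN lines, 40.0, 8.04 and 8.96 CPM in XEN lines, and 0 in both ES lines. Against the ES floor this was a factor of at least 20.7 for pXEN (adjusted p = 0.0115; 0.0621 without ES2 and 0.0616 without ES3) and of at least 31.8 for XEN (adjusted p = 0.00720). Of the 8 helix-loop-helix factors listed, 4 were tested. Hes1 was 4.29-fold higher (adjusted p = 0.000217) and Tcf12, an E protein that ID proteins bind, 2.07-fold higher (adjusted p = 0.0189; 0.0517 without XEN1 and 0.161 without ES2) in XEN than in ES. The median log2 difference of the 41 genes was -0.33 for pXEN minus XEN, 0.56 for pXEN minus ES and 1.10 for XEN minus ES.

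All 10 genes had counts in at least some of the 4 rat XENP lines, but Bmp4 stayed below 3 counts in each line. Id4 was the most counted Id gene in MAX2, MAX3 and MAX8, and Id1 was in CX1. Rat Id4 measured 112, 222, 243 and 348 CPM in CX1, MAX2, MAX3 and MAX8. Among the 14387 symbols shared by the rat and mouse tables, that placed Id4 at percentiles 86.2 to 96.7 by level in rat libraries, beside 63.3 to 72.0 for pXEN libraries, 39.2 to 50.5 for XEN libraries and 46.4 to 55.8 for ES libraries. Species, annotation and line origin change together between rat and mouse, so these ranks were not tested. Id4 gave 88.2% of the Id counts in MAX2 (Wilson 95% interval 83.9 to 91.5), 93.4% in MAX3 (89.8 to 95.8) and 97.0% in MAX8 (94.9 to 98.3), and 31.2% in CX1 (27.0 to 35.6), where Id1 gave 42.6% (38.1 to 47.2).

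CX1 stood apart for the other Id genes. Id1 measured 153 CPM in CX1, and 20.3, 9.55 and 8.93 CPM in MAX2, MAX3 and MAX8. Id3 measured 82.9 CPM in CX1, and 8.32, 3.82 and 1.79 CPM in the MAX lines. Id2 measured 11.3 CPM in CX1, and 0.924, 3.82 and 0 CPM in the MAX lines, where 3 counts are worth 2.77, 2.86 and 2.68 CPM. Without CX1 the rat mean of Id1 was 12.9 CPM, against 47.9 ± 70.2 CPM over all 4 lines (SD), and that of Id3 was 4.64 CPM, against 24.2 ± 39.2 CPM over all 4 lines (SD). CX1 also had 163 CPM of the pluripotency gene Pou5f1, against 6.25 to 8.32 CPM in the MAX lines, while Nanog and Sox2 were at 0 in all 4. Its 11 measured endoderm markers summed to 20381 CPM, against 35336 to 39780 CPM in the MAX lines. Most of that sum was Sparc, Col4a1 and Lama1, at 6232, 6419 and 4522 CPM in CX1. The markers did not move together. CX1 was the lowest rat line for Sparc, Col4a1, Lama1, Gata6, Sox7 and Pdgfra and the highest for Gata4, Dab2 and Hnf4a. For Sox17 and Foxa2 it lay within the range of the MAX lines. CX1 was the line of highest passage, 38 to 40, against 10 to 17 in the MAX lines. The part of these differences in the Id levels was not tested, and CX1 is a single line.

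**Figure D5:**
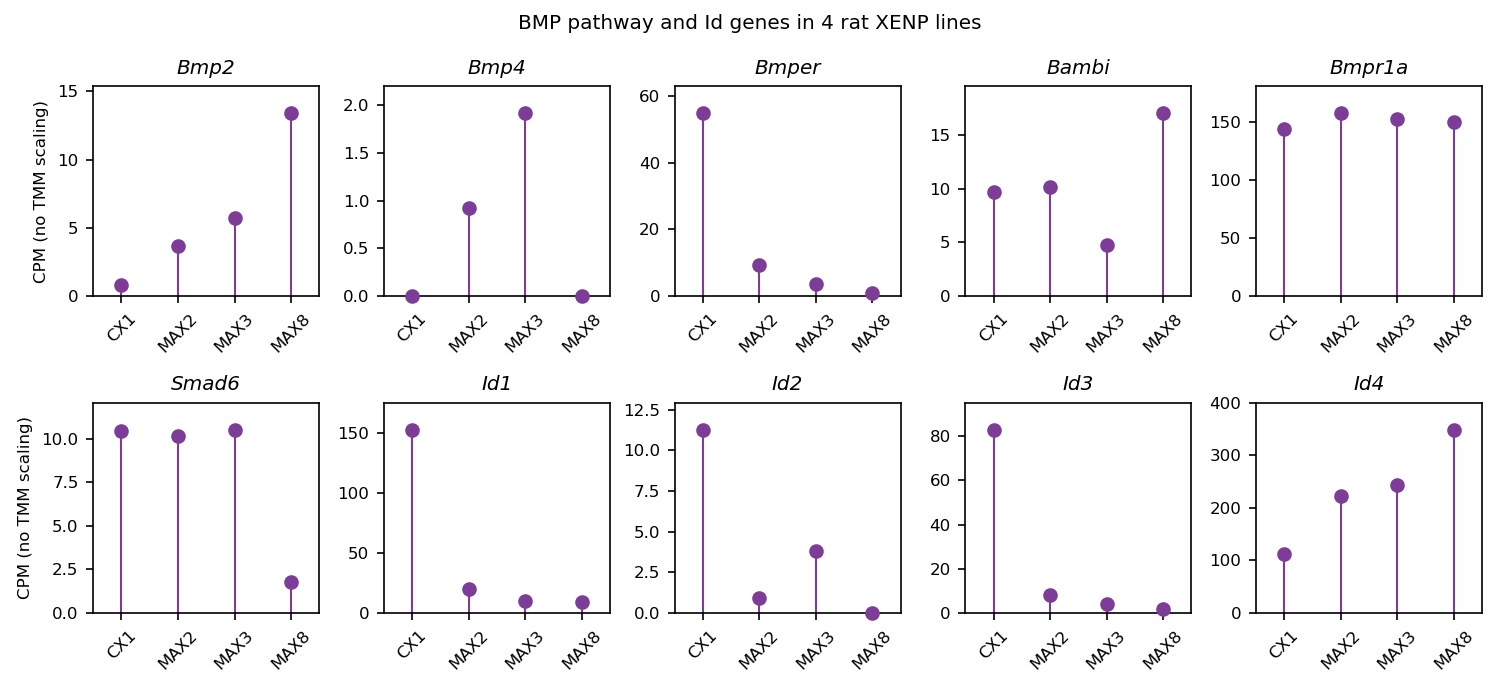
Levels of the 10 genes in the 4 rat XENP lines, as CPM on linear axes that start at 0; each point is a line, joined to 0 by a thin stem. CX1 is the highest point for Bmper, Id1, Id2 and Id3 and the lowest for Id4, and the 4 points of Bmpr1a lie between 144 and 157 CPM.

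The rat ligands were low. Bmp2 measured 0.805, 3.70, 5.73 and 13.4 CPM in CX1, MAX2, MAX3 and MAX8, from 1 to 15 counts, and Bmp4 had 0, 1, 2 and 0 counts. Bmper measured 54.7 CPM in CX1, and 9.24, 3.82 and 0.893 CPM in the MAX lines, so its mean was 4.65 CPM without CX1 and 17.2 ± 25.3 CPM over all 4 (SD). By rank, Bmper lay at percentiles 35.0 to 75.0 of rat libraries, beside 90.4 to 96.9 of pXEN libraries, and Bmp2 at 35.0 to 53.7 of rat and 74.0 to 84.1 of pXEN libraries. Bmpr1a was even, at 144, 157, 153 and 150 CPM. Bambi measured 9.65, 10.2, 4.77 and 17.0 CPM, and Smad6 10.5, 10.2, 10.5 and 1.79 CPM, with MAX8 the lowest at 2 counts.

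Of the antagonists, rat Nog measured 26.6 CPM in CX1, and 130, 116 and 237 CPM in MAX2, MAX3 and MAX8. Nbl1 measured 9.65 CPM in CX1, and 71.2, 57.3 and 72.3 CPM in the MAX lines. CX1 was the lowest line for both. Fst was at 0 to 1.61 CPM in the 4 rat lines, where the pXEN lines had 168 to 235 CPM, and Grem1 was at 0 in all rat and all pXEN lines. The rat fibroblast sum was 0.924 to 13.7 CPM over the 17 genes measured.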

How the data were processed

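Total RNA depleted of ribosomal RNA was sequenced from 12 lines (8 mouse, 4 rat) with a directional kit, per the labels' protocols. The submitters' processing notes name CASAVA 1.8.2, Trimmomatic 0.33, STAR 2.5.1, DESeq2, mm10 and rn6; which gene annotation served for the counts, the sources used here do not say. The deposited files are STAR tables of raw read counts per gene by the authors, with 3 count columns. The reverse-strand column was used, since it held 98.9 to 99.3% of stranded counts. Reads counted in no gene (unmapped, mapped to several places, outside genes or ambiguous; 73.4 to 78.3% of mouse and 89.7 to 91.8% of rat reads) stayed out of library sizes. Those mapped to several places were 7.84 to 9.65% of mouse and 65.5 to 70.1% of rat reads, so rat counts are thinner.

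edgeR 4.0.16 in R 4.3.3 fitted all 8 mouse libraries together (TMM scaling, filterByExpr with a minimum count of 10, robust quasi-likelihood test, Benjamini-Hochberg adjustment, threshold 0.05). Each SE is the log2 difference divided by the square root of F. Folds against a group at 0 use a floor of 3 counts over the group. Nothing was tested in rat, which had a single group. Alternatives were DESeq2 1.42.0, RLE and upper-quartile scaling, no filter, the unstranded column, Rn45s left out, only the groups compared, sex as a covariate, and each line left out in turn. The fit was tested on simulated counts in which every gene had the same, median dispersion. That test does not cover genes with a wider spread between lines, such as Id1 and Id3.

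All 10 genes are named; of the pathway list, up to 3 called genes per role and comparison with the largest log2 difference and at least 10 CPM in the higher group. Smad1, Smad5 and Smad9 are named outside this rule. The genes and lists were chosen with earlier results of these data known. Gene positions are from GENCODE vM21 (GRCm38). No protein sequence or rat genome was used here.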

Additional observations from a re-analysis of the deposited data

Results flagged for a closer look

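In the rat XENP group, 5 values had a line farther from the other 3 than Dixon's 95% critical value allows. CX1 was far above the other lines for Bmper (54.7 CPM), Id1 (152.9 CPM) and Id3 (82.9 CPM), and far below them for the share of Id4 in the Id counts (31.2%). MAX8 was far below the other lines for Smad6, at 1.79 CPM. That value rests on 2 counts, against 13, 11 and 11 in CX1, MAX2 and MAX3, and lies below the MAX8 floor of 2.68 CPM. Id1, Id3 and the Id4 share are not independent, since the share holds the other Id counts. Chance puts about 1 in 20 such groups past the critical value, and 11 values were examined at both ends. The mouse groups of 2 or 3 lines were too small for this rule.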

How the results depend on the processing

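For pXEN against XEN, DESeq2 called 155 of all genes higher, 2 of the 10 genes lower (Bmp4 and Id3) and 1 pathway gene higher. In the same comparison 2 of the 10 were lower without a filter on low counts, 0 were lower with only the 2 groups in the fit, where Bmp4 was filtered out, and 0 were higher with sex as a covariate. For pXEN against ES, 2 of the 10 were higher under upper-quartile scaling, and 1 was lower without a filter, with only the 2 groups and with sex as a covariate. For XEN against ES, 5 pathway genes were lower without a filter. Upper-quartile scaling moved the median log2 difference of all genes to -0.13 for pXEN minus ES and -0.11 for XEN minus ES; the cause of the other changes was not tested.

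Leaving out each line in turn gave these ranges. For pXEN against XEN, 63 to 86 of all genes were higher and 255 to 368 lower, 0 to 1 of the 10 higher and 1 to 1 lower, and 0 to 1 pathway genes higher and 5 to 7 lower. For pXEN against ES, 1168 to 2030 of all genes were higher and 1358 to 2012 lower, 2 to 5 of the 10 higher and 1 to 2 lower, and 7 to 13 pathway genes higher and 5 to 7 lower. For XEN against ES, 1277 to 2346 of all genes were higher and 1197 to 2012 lower, 3 to 4 of the 10 higher and 0 to 0 lower, and 13 to 20 pathway genes higher and 1 to 3 lower.

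Several uncalled log2 differences changed sign. For pXEN minus XEN, Bmper was -0.28 with sex as a covariate, and with single lines left out it ran from -0.34 (without pXEN6) to 0.38, Id1 from -2.01 to 0.55 (without XEN2) and Id2 from -0.80 to 0.17 (without pXEN6). For XEN minus ES, Id1 ran from -1.60 to 0.086 (without ES2), Id3 from -0.16 (without ES3) to 1.08 and Id4 from -1.07 to 0.13 (without ES3). Rat means without 1 line ran from 4.65 to 22.6 CPM for Bmper, 12.9 to 60.9 CPM for Id1, 4.64 to 31.7 CPM for Id3, 3.41 to 7.61 CPM for Bmp2, 0.308 to 0.944 CPM for Bmp4, 1.58 to 5.34 CPM for Id2, 7.47 to 10.4 CPM for Smad6 and 192 to 271 CPM for Id4. No paired analysis was possible because the groups compared share only the line number 2, which names a line and not a batch. Depth limits Bmp4, Smad6 and Grem1 in mouse and the ligands, Smad6, Id2 and Id3 in rat, which rest on few counts per line. The ES group has 2 lines.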

Other observations

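Over the 8 mouse lines, the tested genes whose log2 CPM followed each gene most closely were, by Pearson's r, Foxa2 for Bmp2 (0.997), Map2 for Bmp4 (0.985), 4632428N05Rik for Bmper (0.998), Trim44 for Bambi (0.972), Chic2 for Bmpr1a (0.987), Fzd6 for Smad6 (0.953), Taf5 for Id1 (0.980), Med20 for Id2 (0.962), Cfap20 for Id3 (0.967) and Ppp1r1a for Id4 (0.967). Foxa2, an endoderm transcription factor, averaged 80.5 CPM in pXEN and 111 CPM in XEN and was at 0 in ES lines, as Bmp2 was. Fzd6, a Wnt receptor, averaged 2.80 CPM in pXEN, 25.5 CPM in XEN and 9.57 CPM in ES, the same order as Smad6. Ppp1r1a, an inhibitor of protein phosphatase 1, averaged 27.0 CPM in pXEN, 9.28 CPM in XEN and 11.9 CPM in ES, the same order as Id4. Each correlation is the highest of many over few lines in 3 groups, and is given as a description. Kdelr3 and Dram1 came next for Bmp2, Hoxd13 and Xrcc4 for Bmp4, and Galk1 and Cemip for Bmper. Il3ra and Lgr4 came next for Bambi, Pitpnm1 and Pear1 for Bmpr1a, Usp3 and Fam104a for Smad6, Pias4 and Traf7 for Id1, Zfp316 and Pold4 for Id2, Myl6b and Nfatc4 for Id3, and Ikzf4 and Ptpmt1 for Id4.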
